A study of Mus musculus with 6 samples.

Results

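Macrophages and other leukocytes can be recognised in a mixed RNA sample by the genes of their surface receptors, lysosomal enzymes, complement subunits and antigen-presenting molecules. A set of 40 such genes was followed here, culture by culture, in primary mouse aortic endothelial cell cultures. They were chosen by gene symbol, and all 40 were found among the 18193 genes named on the Affymetrix mouse genome array. A gene with several probe sets was read by the probe set with the highest mean over the arrays. In total 74 probe sets read the 40 genes, 23 genes having 1 probe set and 17 having between 2 and 5.

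The transgenic group carried a human PPARG transgene with the V290M change, which acts as a dominant negative, driven by the endothelial promoter of CDH5 (vascular endothelial cadherin), on a C57 background. PPARG is a nuclear receptor that controls lipid genes in fat cells, macrophages and endothelium. The non-transgenic group had the same background and no transgene, and no culture received a treatment. Each culture pooled the cells of 2 mice, 5 cultures were grown per group, and the RNA of 3 per group was put on 1 array each, so n = 3 cultures per group. The labels give no age.

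Macrophages take up debris and microbes through Fc, scavenger and lectin receptors, several of which signal through the small adaptors Tyrobp and Fcer1g, and digest the cargo with lysosomal enzymes such as lysozyme and cathepsin S. They make the C1q subunits of complement and, when activated, show peptides on class II molecules. Resident macrophages are a normal part of the arterial wall, mainly of its outer layer, and can be carried into primary cultures. In a culture measured as a whole, fewer cells of a type and less RNA per cell cannot be told apart.

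Values are given as log2(signal + 16) of the deposited array signal, a scale that understates changes of dim genes. A probe set was called at or above the level when its value reached 7.72, the median over the non-control probe sets of their mean values. Levels of different genes cannot be set against each other, since each probe set has its own brightness. Differences are transgenic minus non-transgenic. They were tested over 11208 genes whose mean reached the level with limma, which pools the spread over genes, and p-values were adjusted by Benjamini-Hochberg over all genes tested. With 3 arrays per group, that number sets the precision of each value.

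The labelled cell type was only partly borne out by the markers. Cdh5, whose promoter drives the transgene, and the endothelial genes Pecam1 and Nos3 stayed below the level in all 6 cultures, and 6 to 8 of 20 endothelial markers reached it per culture, against 19 or 20 of 20 fibroblast markers. Transgenic culture 3 stood nearer to the other group, with a mean rank correlation over genes of 0.974 with the non-transgenic and 0.95 with the other transgenic cultures. Transgenic culture 2 had the lowest such correlation with the non-transgenic cultures, at 0.944, beside 0.956 with the other transgenic cultures. The ratio of 3' to 5' signal at the Gapdh control probes, a measure of RNA length, was 1.2 to 1.44 in the transgenic and 1.51 to 1.71 in the non-transgenic cultures. It was lowest in transgenic culture 2. Its part in the results below was not tested.

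Most of the macrophage and leukocyte genes were highest in transgenic culture 2, and the set was not high in the transgenic group as a whole. Of the 40 genes, 6, 15 and 5 reached the level in transgenic cultures 1, 2 and 3, against 6, 5 and 6 in non-transgenic cultures 1, 2 and 3. Among all genes these shares were 61.6%, 61.5% and 61.5%, against 63.2%, 61.3% and 61.7%. Transgenic culture 2 held the highest of the 6 values for 26 of the 40 genes (65%), compared with 21.5% of all genes. In transgenic cultures 1 and 3 this count was 3 each, against 4, 1 and 3 in the non-transgenic cultures, where all genes gave 15.9% and 19.9% against 15.5%, 11.6% and 15.6%.

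**Figure D1:**
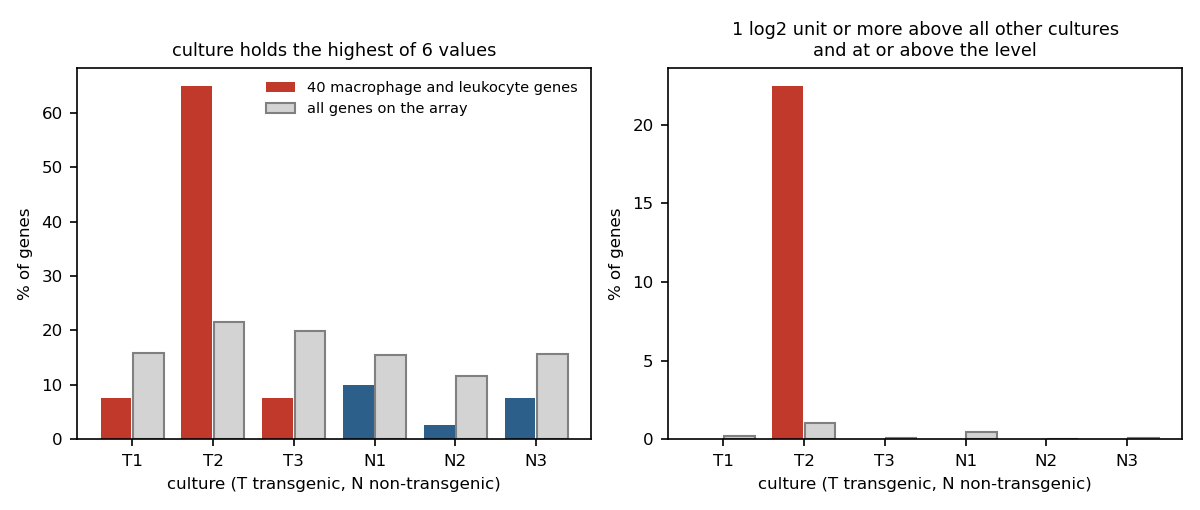
Share of genes (%) for which each culture holds the highest of the 6 values (left) and for which it lies at least 1 log2 unit above every other culture and at or above the level (right). Coloured bars are the 40 macrophage and leukocyte genes (red transgenic T1 to T3, blue non-transgenic N1 to N3) and grey bars all 18193 genes; the bars of transgenic culture 2 stand at 65% and 22.5%.

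A stricter count asked for a lead of at least 1 log2 unit over every other culture together with a value at or above the level. It was met by 9 of the 40 genes (22.5%) in transgenic culture 2 and by 0 in each of the other 5 cultures. Over all genes the share was 0.165%, 1.03% and 0.0934% in transgenic cultures 1, 2 and 3, against 0.445%, 0.0165% and 0.0495% in the non-transgenic cultures. The 9 genes were Ctss, Lyz2, Laptm5, Lcp1, Fcgr3, Tyrobp, C1qb, Mrc1 and Cd68, with leads of 2.14-fold to 6.14-fold. Below the level, 3 more genes had such a lead in transgenic culture 2 (C1qa, C1qc and Clec7a), 1 in transgenic culture 1 (H2-Aa) and 1 in non-transgenic culture 3 (Trem2). The lead of H2-Aa was on the brightest of its 4 probe sets, and the dimmer ones were highest in transgenic culture 2.

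**Figure D2:**
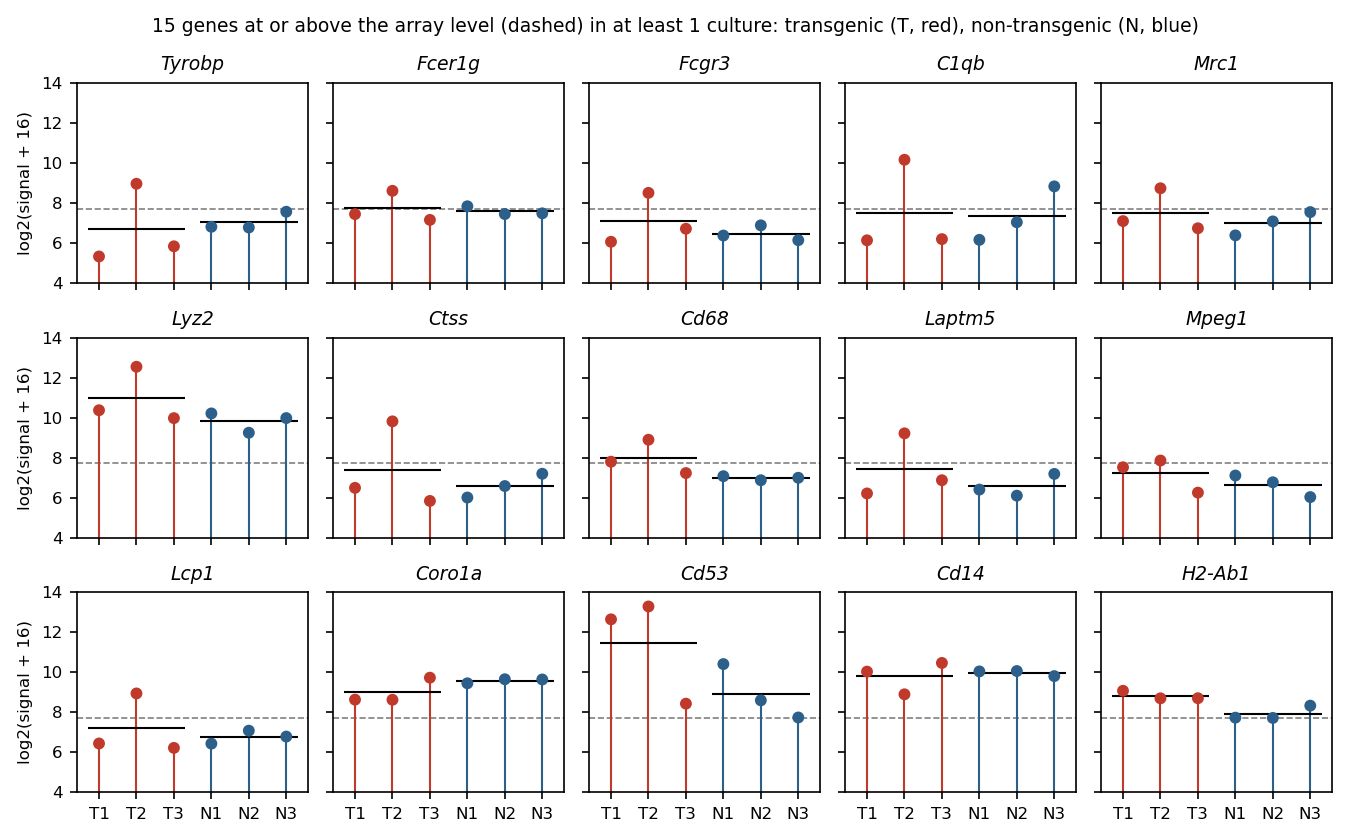
Log2(signal + 16) of the 15 genes that reached the level (dashed line, 7.72) in at least 1 culture; points are single cultures, red transgenic (T1 to T3) and blue non-transgenic (N1 to N3), and black bars are group means. Thin stems lead the eye to the name of the culture. The point of T2 stands at 9.82 for Ctss and 12.54 for Lyz2. For 7 of the 15 genes T2 is the only culture at or above the level, so that its peak there follows from how the panels were chosen.

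Receptors and their adaptors come first. Tyrobp, the adaptor also called DAP12 that couples myeloid receptors to the kinase Syk, was at 5.33, 8.97 and 5.84 in the transgenic cultures, against 6.82, 6.78 and 7.57 in the non-transgenic cultures. Transgenic cultures 1 and 3 were thus the lowest of the 6 and culture 2 the highest. Fcer1g, the common gamma chain of Fc receptors, was at 7.45, 8.61 and 7.16, against 7.84, 7.45 and 7.49 in the non-transgenic cultures. Fcgr3, a low-affinity receptor for antibody, was at 6.07, 8.51 and 6.72, against 6.38, 6.89 and 6.15. The mannose receptor Mrc1, a marker of resident macrophages, was at 7.10, 8.74 and 6.74, against 6.39, 7.08 and 7.55. For all of these transgenic culture 2 was highest and the groups overlapped. Tyrobp, Fcgr3 and Mrc1 reached the level in that culture alone, while Fcer1g also did in non-transgenic culture 1.

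Lysosomal and membrane genes of macrophages also peaked in transgenic culture 2. Ctss, a cysteine protease that trims the class II invariant chain, was at 6.50, 9.82 and 5.84 in the transgenic cultures, against 6.01, 6.58 and 7.20 in the non-transgenic cultures. Lyz2, the lysozyme of myeloid cells, was at 10.37, 12.54 and 9.98, against 10.21, 9.25 and 9.98, and reached the level in every culture. Its group difference of 1.15 ± 0.64 (SE, n = 3 per group) did not pass (limma adjusted p = 0.487) and was 0.36 without transgenic culture 2. Laptm5, a lysosomal membrane protein of blood cells, was at 6.22, 9.22 and 6.88, against 6.41, 6.10 and 7.19. This was the brightest of its 5 probe sets, and 3 of the 5, this one included, were highest in transgenic culture 2. The lead was 2.03 on the brightest and only 0.13 and 0.79 on the dimmer ones of these.

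Cd68, a glycoprotein of macrophage lysosomes, was at 7.80, 8.90 and 7.23 in the transgenic cultures, against 7.08, 6.88 and 6.999 in the non-transgenic cultures, so that all 3 transgenic values lay above all non-transgenic ones. Its mean lay under the level and it was tested only when no filter was used (difference 0.99, limma adjusted p = 0.51). Mpeg1, a pore-forming protein of macrophages, was at 7.52, 7.86 and 6.26, against 7.11, 6.77 and 6.03. Lcp1, the leukocyte form of the actin-bundling protein plastin, was at 6.44, 8.94 and 6.22, against 6.44, 7.09 and 6.79. Its second probe set, below the level in every culture, was highest in non-transgenic culture 2 (6.59, beside 6.41 in transgenic culture 2). Of the 17 genes with several probe sets, 1 (C1qb) had the same highest culture on all of them. On the brightest probe set transgenic culture 2 was highest for Cd68 by 1.10, for Mpeg1 by 0.34 and for Lcp1 by 1.86. The groups overlapped for Mpeg1 and Lcp1.

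The complement C1q molecule is built from the products of C1qa, C1qb and C1qc, which lie next to each other in the genome. C1qb was at 6.14, 10.16 and 6.20 in the transgenic cultures, against 6.16, 7.04 and 8.83 in the non-transgenic cultures. All 3 of its probe sets had transgenic culture 2 highest and non-transgenic culture 3 second. On the dimmest, which stayed below the level in every culture, the lead was 0.94. C1qa was at 5.81, 7.29 and 4.54, against 4.43, 4.36 and 5.80, and C1qc at 4.29, 7.28 and 4.23, against 4.51, 4.58 and 4.67. These last values never reached the level, but both genes led in transgenic culture 2, by 1.48 for C1qa and 2.61 for C1qc.

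Non-transgenic culture 3 was the most frequent runner-up. Of the 26 genes that were highest in transgenic culture 2, 12 were second highest in non-transgenic culture 3 and 8 in transgenic culture 1. Of the 9 genes with the lead of 1 log2 unit, 5 (55.6%) had non-transgenic culture 3 second and 2 (22.2%) transgenic culture 1. Among all 187 genes with such a lead in transgenic culture 2, the order was the other way round, with 68.4% second in transgenic culture 1 and 10.7% in non-transgenic culture 3. Non-transgenic culture 3 was itself highest for Trem2, a lipid-sensing macrophage receptor, at 6.93 against at most 5.03 elsewhere, and for the haemoglobin scavenger receptor Cd163, at 6.56. Both stayed below the level. The other Trem2 probe set was highest in transgenic culture 2 instead, at 5.66 beside 4.97 in non-transgenic culture 3, and its mean of 5.00 was close to the 5.07 by which the first was chosen.

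**Figure D3:**
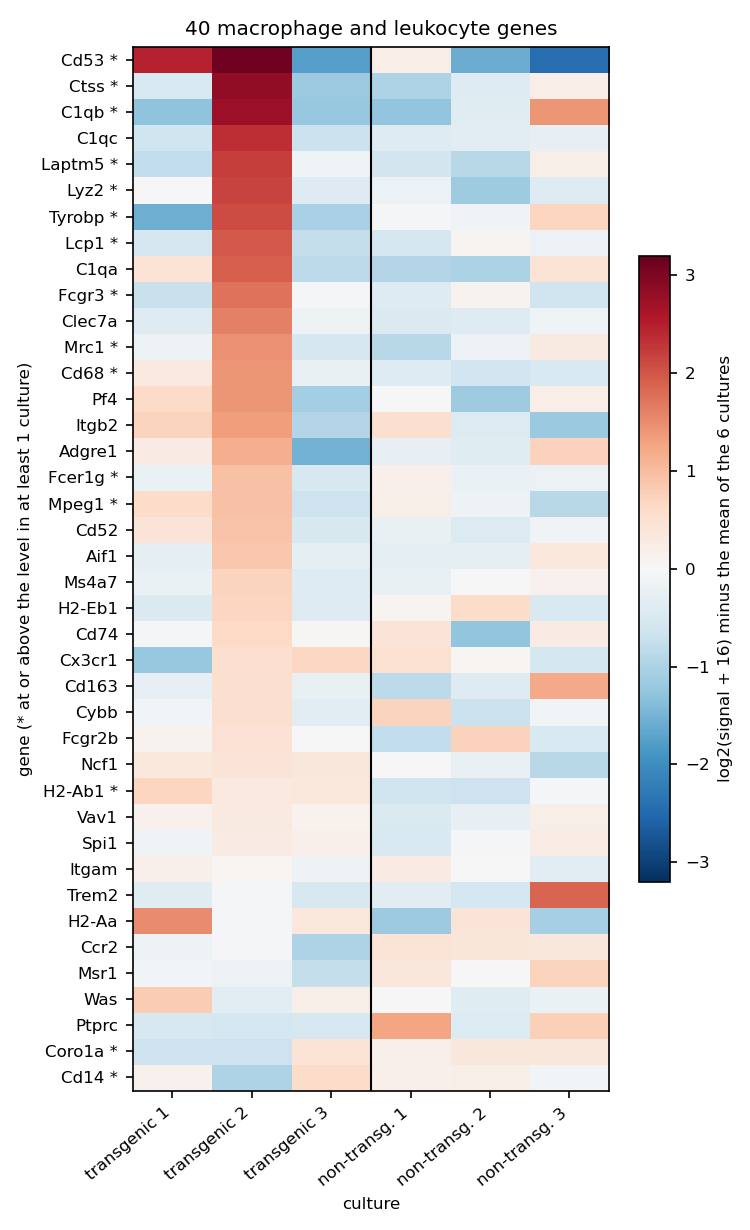
Deviation of each of the 40 genes (rows) from its own mean over the 6 cultures (columns), in log2(signal + 16) units, sorted by the value in transgenic culture 2; red is above and blue below the gene's mean, and an asterisk marks genes that reached the level in at least 1 culture. The red column of transgenic culture 2 runs through most rows, with Cd53 also red in transgenic culture 1, C1qb and Trem2 red in non-transgenic culture 3, and Coro1a and Cd14 blue in transgenic culture 2.

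Promoters of 4 genes are shown because they stand for the patterns seen: Ctss, C1qb and Laptm5 led in transgenic culture 2, and Cd53 was high in transgenic cultures 1 and 2. Each line gives the 250 bases before the annotated start of transcription, 5′ to 3′ on the gene's strand, from RefSeq in build GRCm38.p6. Capitals mark GAGGAA or its reverse complement, the core recognised by PU.1, the myeloid transcription factor encoded by Spi1. The regions are chr3:95526536-95526785 (plus strand), chr4:136886201-136886450 (minus strand), chr4:130913066-130913315 (plus strand) and chr3:106790150-106790399 (minus strand).
Ctss: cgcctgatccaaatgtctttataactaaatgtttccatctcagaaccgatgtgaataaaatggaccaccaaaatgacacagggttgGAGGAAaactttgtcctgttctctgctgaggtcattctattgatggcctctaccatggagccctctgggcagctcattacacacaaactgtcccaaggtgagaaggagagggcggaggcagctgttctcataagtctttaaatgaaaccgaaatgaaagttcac
C1qb: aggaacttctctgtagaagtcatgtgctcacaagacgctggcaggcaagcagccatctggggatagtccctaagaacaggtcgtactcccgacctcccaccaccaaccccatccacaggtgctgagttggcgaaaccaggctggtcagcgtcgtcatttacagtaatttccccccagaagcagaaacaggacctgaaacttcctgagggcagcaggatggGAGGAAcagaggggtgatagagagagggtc
Laptm5: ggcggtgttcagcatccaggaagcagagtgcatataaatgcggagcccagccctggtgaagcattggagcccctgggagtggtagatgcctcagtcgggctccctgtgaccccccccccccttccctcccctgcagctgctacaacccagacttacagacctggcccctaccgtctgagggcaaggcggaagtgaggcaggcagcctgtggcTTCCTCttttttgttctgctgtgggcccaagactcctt
Cd53: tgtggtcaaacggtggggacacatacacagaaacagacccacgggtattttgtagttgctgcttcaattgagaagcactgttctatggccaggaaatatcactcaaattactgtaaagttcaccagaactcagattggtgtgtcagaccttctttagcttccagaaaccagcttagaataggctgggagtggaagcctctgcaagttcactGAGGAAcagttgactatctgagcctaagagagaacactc
The capitals begin 164, 30, 38 and 39 bases before the start site in Ctss, C1qb, Laptm5 and Cd53. The search covered both strands of windows of 300 bases, 250 before and 50 after the start, and in Ctss and Cd53 it found a second match at the first and the ninth base of the transcript. Windows were at hand for 30 of the 40 genes, of which 18 (60.0%) held GAGGAA, compared with 31.3% of 27025 genes. Of the 8 genes with a window among the 9 that led in transgenic culture 2, 6 held it. The direct repeat of AGGTCA with 1 base between the copies, the form bound by PPAR and its partner RXR, was in the window of 0 of the 30 genes and of 0.0481% of all genes. Such matches describe the letters of these windows alone.

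Cd53, a tetraspanin of leukocytes, had a pattern of its own. It was at 12.65, 13.29 and 8.43 in the transgenic cultures, against 10.41, 8.60 and 7.74 in the non-transgenic cultures. Transgenic cultures 1 and 2 were far above the rest, and transgenic culture 3 lay between the lower non-transgenic values. The difference of 2.54 ± 1.25 (SE, 5.81-fold on this scale) did not pass (limma adjusted p = 0.451). Without transgenic culture 3 it was 4.05 and passed (limma adjusted p = 0.0104), and without transgenic culture 2 it was 1.62. The second probe set of Cd53 was below the level in every culture, at 4.69, 5.18 and 4.23, against 5.53, 4.92 and 4.23.

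Coro1a, an actin regulator of leukocytes, went the other way. It was at 8.64, 8.63 and 9.73 in the transgenic cultures, against 9.45, 9.65 and 9.64 in the non-transgenic cultures, so that transgenic cultures 1 and 2 were the lowest and transgenic culture 3 the highest. The difference was -0.58 ± 0.35 (SE, limma adjusted p = 0.514). Without transgenic culture 3 it was -0.95 and passed (limma adjusted p = 0.0368). The next brightest of its 3 probe sets also had transgenic cultures 1 and 2 lowest, at 8.81, 8.79 and 9.5, against 9.25, 9.37 and 9.43. Cd14, the co-receptor for bacterial lipopolysaccharide, which fibroblasts can also express, was at 10.04, 8.90 and 10.47, against 10.05, 10.07 and 9.81. Transgenic culture 2, highest for most of the 40 genes, was the lowest for Cd14, and the difference was -0.17 ± 0.40 (SE, limma adjusted p = 0.870).

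H2-Ab1, the beta chain of the class II molecule I-A, was higher in all 3 transgenic cultures. It was at 9.08, 8.70 and 8.71 in the transgenic cultures, against 7.74, 7.72 and 8.34 in the non-transgenic cultures. The means were 8.83 ± 0.22 in the transgenic and 7.93 ± 0.35 in the non-transgenic cultures (SD, n = 3 each). The difference of 0.90 ± 0.30 (SE, 1.86-fold) did not pass (limma adjusted p = 0.428). It differed little when a culture was left out, between 0.77 and 1.10. All 3 of its probe sets had the groups apart in this direction, the dimmer ones by 1.5 and 1.75. The names of the brightest and of the one with 1.5 mark probe sets that may also match related transcripts. The same holds for the brightest probe sets of H2-Aa, C1qb and Laptm5, and for the next brightest of C1qb.

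**Figure D4:**
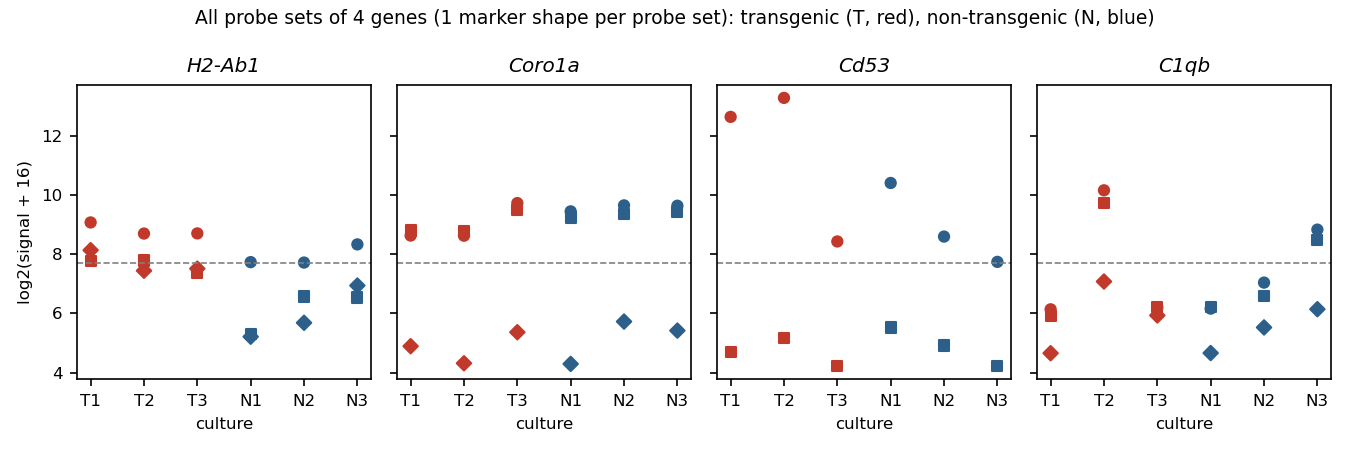
All probe sets of H2-Ab1, Coro1a, Cd53 and C1qb in log2(signal + 16), each point being 1 culture (red transgenic T1 to T3, blue non-transgenic N1 to N3), with 1 marker shape per probe set and the level as a dashed line. The 3 probe sets of H2-Ab1 lie higher in all red points than in all blue ones, the dim probe set of Cd53 does not follow the bright one, and the 3 probe sets of C1qb share their peak in T2.

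The groups overlapped for the class II genes H2-Aa, H2-Eb1 and Cd74. H2-Aa, the partner chain of H2-Ab1, was read by 4 probe sets, all below the level in every culture. The brightest was at 7.39, 5.84 and 6.23 in the transgenic cultures, against 4.73, 6.30 and 4.81 in the non-transgenic cultures. The dimmer ones were highest in transgenic culture 2, at 6.10, 6.10 and 4.55, and the groups overlapped on each. H2-Eb1 lay between 5.24 and 6.41 and the invariant chain gene Cd74 between 5.80 and 7.69. Both were also highest in transgenic culture 2, by 0.10 and 0.22. A further list held 10 partners in class II presentation, some of them costimulatory ligands or proteases and not class II genes. Among them 5, 6 and 5 reached the level in the transgenic cultures, against 5, 2 and 4 in the non-transgenic cultures. Of these 5 were tested, 0 passed after adjustment and 3 had an unadjusted limma p under 0.05, all higher, beside 6.47% of all genes. H2-DMa, which helps load peptides, was at 8.25, 8.55 and 8.64, against 7.86, 7.32 and 7.32, with a difference of 0.98 ± 0.30 (SE, limma adjusted p = 0.428). The costimulatory ligand Cd80 was at 10.85, 11.43 and 8.51, against 8.93, 7.66 and 8.18 (limma adjusted p = 0.428), and the cathepsin Ctsh differed by 0.48 (limma adjusted p = 0.434). Ciita, the master regulator of class II genes, stayed between 5.84 and 7.05 and was picked after its values were seen.

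The remaining genes were dim. In total 25 of the 40 genes stayed below the level in all 6 cultures, between 4.12 and 7.69. They include the pan-leukocyte phosphatase Ptprc (CD45), the macrophage marker Adgre1 (F4/80), the integrin chains Itgam and Itgb2, the chemokine receptors Cx3cr1 and Ccr2, the lectin Clec7a, and Spi1. Of these 25, 14 had their highest value in transgenic culture 2, and the beta-glucan receptor Clec7a led there by 1.75 (6.18 against 4.12 to 4.43 elsewhere). Ptprc was at 5.89, 5.83 and 5.88 in the transgenic cultures, against 7.66, 5.96 and 7.16 in the non-transgenic cultures. Every transgenic value of Ptprc thus lay below every non-transgenic one on this probe set. On its other, dimmer probe set the groups overlapped, at 4.78, 5.34 and 4.69, against 5.34, 4.03 and 4.58. Spi1 lay between 5.81 and 6.54 and its highest value, in transgenic culture 2, was 0.02 above the next. Ncf1, a cytosolic subunit of the phagocyte oxidase, was at 6.57, 6.64 and 6.60, against 6.25, 5.99 and 5.34. Ccr2, the receptor that brings monocytes into tissue, was at 6.45, 6.58 and 5.64, against 7.07, 7.01 and 6.98. The scavenger receptor Msr1 was at 6.51, 6.42 and 5.84, against 6.96, 6.59 and 7.32. The groups lay apart for these 3 genes on the brightest probe set, in opposite directions for Ncf1 and for Ccr2 and Msr1. On every other probe set of Ncf1, Ccr2 and Msr1 the groups overlapped. Cybb, the membrane subunit of the same oxidase, lay between 5.51 and 6.90 with overlapping groups on its brightest probe set. On the next brightest they lay apart, at 5.72, 6.48 and 5.88, against 5.16, 4.38 and 4.26, and on the dimmest they overlapped. The others, Cd52, Aif1, Fcgr2b, Vav1, Was, Ms4a7 and Pf4, overlapped between groups too.

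Between the groups, 31 of the 40 genes had a higher mean in the transgenic cultures and 9 a lower one, with a median difference of 0.38, beside -0.03 over all genes. That count rested on transgenic culture 2, since without it 19 of the 40 were higher and the median difference was -0.05. The groups did not overlap for 3 genes that were higher in the transgenic cultures (7.5%, beside 7.49% of all genes), Cd68, H2-Ab1 and Ncf1. They also did not overlap for 3 that were lower (7.5%, beside 7.07% of all genes), Ptprc, Ccr2 and Msr1. Both shares were near those of all genes. With probe sets averaged per gene, 4 of the 40 were apart and higher and 0 lower, beside 6.50% and 9.65% of all genes. With an array left out, which leaves fewer values to overlap, 3 to 10 genes were apart and higher, with 10 without transgenic culture 3, where 19.5% of all genes were apart and higher. Without the other arrays in turn, the share over all genes was 9.43% to 15.2%.

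Of the 40 genes 5 reached the mean level and were tested, Lyz2, Cd53, Cd14, Coro1a and H2-Ab1. limma called 0 of them after adjustment, and 0 of all 11208 genes (0.0%). At an unadjusted limma p under 0.05, 1 of the 5 was higher, H2-Ab1, and 0 lower, beside 6.47% and 5.02% of all genes. With no filter, 0 of the 40 passed (0.0% of all genes) and 2 had an unadjusted p under 0.05 (5% of the 40, beside 9.86% of all genes). Without transgenic culture 3, Cd53 passed as higher (beside 6.88% of all genes) and Coro1a as lower (beside 7.83%). With no filter as well, 1 of the 40 passed, Cd53, beside 7.61% of all genes, and 9 were higher and 1 lower at an unadjusted p under 0.05, beside 11.0% and 13.2% of all genes. Weights per array called 4 of the 5, all but Cd14, but also 49.1% of all genes.

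Genes that act with the 40 were counted from lists of the same pathways. Csf1r, the receptor for the macrophage growth factor CSF1, was higher in all 3 transgenic cultures on each of its 3 probe sets, at 11.03, 10.49 and 10.59, against 8.94, 9.06 and 8.61 on the brightest (difference 1.83 ± 0.26 SE, limma adjusted p = 0.428, and 0.00718 without transgenic culture 3). It therefore did not share the peak in transgenic culture 2 of the C1q or lysosomal genes. Of the 8 genes of the CSF axis, 4, 5 and 3 reached the level in the transgenic cultures, against 4, 4 and 3 in the non-transgenic cultures. Of 17 genes of immune receptor signalling, 5, 5 and 4 did, against 4, 5 and 4, and of the 4 tested 0 passed. The kinase Syk had the smallest p of these, at 10.05, 9.81 and 9.11, against 8.81, 8.61 and 8.76 (difference 0.93, limma adjusted p = 0.428). The 11 myeloid transcription factors gave 8, 8 and 7, against 7, 7 and 8. Of these 7 were tested and 0 passed, with Maf and Cebpa, which adipocytes and stromal cells also use, at unadjusted p under 0.05 and lower, beside 5.02% of all genes. Of 5 partners of the phagocyte oxidase, 3 reached the level in every culture, and of the 3 tested 0 passed.

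Some scavenger and resident macrophage genes also peaked in transgenic culture 2. Of 21 such genes, 9, 10 and 7 reached the level in the transgenic cultures, against 8, 7 and 7 in the non-transgenic cultures, and their summed signal was 51624, 46277 and 56123, against 59799, 48969 and 47909, lowest in transgenic culture 2, where their mean log2 deviation from the non-transgenic average (0.77) was the highest. In that culture 3 of them led by at least 1 log2 unit at or above the level (1.03% of all genes), and in non-transgenic culture 1 the fatty acid transporter Cd36 did (0.445% of all genes), by 2.25. Chil3, a chitinase-like protein of activated macrophages, was at 5.64, 11.67 and 5.28 in the transgenic cultures, against 5.38, 4.98 and 7.06 in the non-transgenic cultures. Cd5l, a protein secreted by macrophages, was at 4.34, 8.80 and 5.04, against 5.49, 4.96 and 6.30. Olr1, a receptor for oxidised lipoprotein that endothelium also has, was at 8.24, 10.98 and 6.67, against 8.08, 5.94 and 6.24. Chil3 had the largest lead in transgenic culture 2 of all genes at or above the level, 4.61, and Chil3 and Cd5l had non-transgenic culture 3 second. The myeloid lectin Clec4d, picked after its values were seen, was highest in transgenic cultures 1 and 2, at 9.61, 9.25 and 5.13, against 6.39, 6.63 and 7.59.

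Markers of other leukocytes were mostly below the level. In each culture 0 of 9 B and plasma cell markers, 1 of 11 T and NK cell markers (Prf1) and 1 of 7 dendritic cell markers (Zbtb46) reached it. Of 11 monocyte and neutrophil genes, 2, 3 and 1 did in the transgenic cultures, against 2, 1 and 1 in the non-transgenic cultures. S100a8, a calcium-binding protein of neutrophils and monocytes, was at 8.38, 9.83 and 7.32, against 7.34, 6.48 and 6.99 (difference 1.57, limma adjusted p = 0.428), and the neutrophil collagenase Mmp8 also led in transgenic culture 2, by 1.04. Of 8 mast cell and basophil markers, 2, 1 and 0 reached the level, against 0 in every non-transgenic culture. Of 8 platelet and erythroid markers 2, 2 and 2 did, against 2, 1 and 1.

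**Figure D5:**
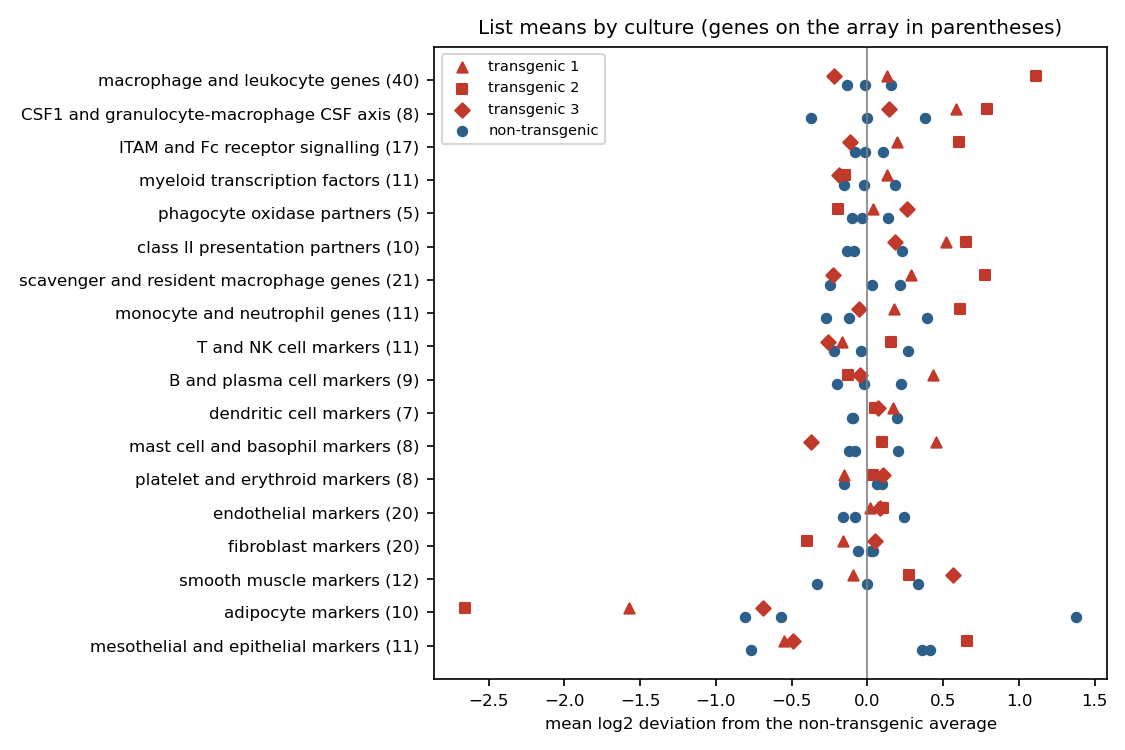
Mean log2 deviation of each gene list from its average over the 3 non-transgenic cultures (x axis), with 1 red marker shape per transgenic culture above the blue non-transgenic points and the number of genes on the array in parentheses. The macrophage and leukocyte genes stand at 0.13, 1.11 and -0.22 in transgenic cultures 1, 2 and 3, while the adipocyte markers stand at -1.57, -2.66 and -0.69.

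Markers of other cell types also moved in transgenic culture 2, and their part in the pattern of the 40 genes was not tested. The 10 adipocyte markers on the array had a summed signal of 39353, 22551 and 35960 in the transgenic cultures, against 88848, 44443 and 42268 in the non-transgenic cultures. The number at or above the level was 5, 4 and 9, against 9, 9 and 8. The summed signal of the 11 mesothelial and epithelial markers was 2840, 8939 and 4101, against 5859, 2661 and 5379, with the keratin Krt19 leading in transgenic culture 2 by 2.66. Of these 11 markers 4, 7 and 5 reached the level, against 7, 3 and 6, and of 12 smooth muscle markers 8, 10 and 10 did, against 9, 8 and 9. Fibroblast markers summed to 336492, 313493 and 330628, against 363753, 326678 and 346849. Endothelial markers summed to 14346, 16179 and 20009, against 18197, 15234 and 13688.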

How the data were processed

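RNA of 6 cultures was hybridised to 1 Affymetrix array each from about 50 ng of amplified total RNA, per the labels' protocols. The authors deposited MAS5 intensities on a linear scale (per the submitters' processing notes), 1 per array for each probe set. The MAS5 version is not stated in the sources used. The deposited intensities ran from 0.1 to 67821.8 on 45101 probe sets, 64 of them controls, and their trimmed mean was close to 1500 on each array. This scaling was not altered, and detection calls were not used here.

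Symbols came from the array annotation, in which 34945 probe sets had 1 gene, 932 several (not named) and 9160 none listed, and were updated by gene identifier with RefSeq's mouse table (GRCm38.p6). Values were log2(intensity + 16), with 1 probe set per gene. Genes whose mean reached the level were tested two-sided with limma 3.58.1 in R 4.3.3 (eBayes with a trend, Benjamini-Hochberg at 0.05). The test was checked on simulated data. Leads of a culture, counts and overlaps are descriptions without a test. Every member is accounted for, and values of all cultures are given for members at or above the level in at least 1 culture. From the other lists, genes with the largest lead or the smallest p were named. The members and lists were chosen with earlier results of these data known. Replicates are separate cultures by the labels, and at most 0.142% of the values were identical between any 2 arrays.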

Additional observations from a re-analysis of the deposited data

How the results depend on the processing

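The count of 0 genes called by limma (unadjusted p under 0.05 for 725 higher and 563 lower genes) stayed at 0 with other pseudocounts, filters and scalings, without the variance trend, with other uses of the probe sets and with the replicate block. It was 5504 with array weights, which gave transgenic culture 3 a weight of 0.177 and transgenic culture 1 one of 5.24. It ran from 0 to 1649 when each array was left out, the highest value being without transgenic replicate 3. Without that array and with no filter, added after seeing the data, it was 1385. The replicate numbers were not used to pair the cultures in the main fit. Deviations of same-numbered cultures correlated at 0.04, -0.28 and -0.03. The fit with the replicate number as a block called 0 genes, as the main fit did. These values cannot decide whether same-numbered cultures were prepared together. The median difference of the 40 genes ran from -0.05 to 0.58 over the left-out arrays. The median signal was 183.6, 186.1 and 173.0 on the transgenic arrays, against 220.5, 219.9 and 222.9 on the non-transgenic arrays. Centring each array on its median shifted the median of all genes to 0.24 and that of the 40 genes to 0.65. The genes with groups apart and higher numbered 5 with quantile normalization (10.6% of all genes) and 5 with median centring (23.96% of all genes), and 3 to 10 with an array left out (9.43% to 19.5%). Those lower numbered 1 with median centring (1.56%), 0 with probe sets averaged per gene (9.65%) and 3 to 6 with an array left out (10.3% to 22.1%). With the level at the 75th percentile, 1, 2 and 0 of the 40 genes reached it in the transgenic cultures, against 0 in each non-transgenic culture. With the mean of all probe sets 3 reached the median level in non-transgenic culture 2. A lead of 2 log2 units in transgenic culture 2, at or above the level, was met by 3 genes. With the mean of all probe sets, the lead of 1 log2 unit in that culture was met by 7 genes. The difference of Cd14 turned to 0.10 with median centring and ran from -0.51 to 0.28 with an array left out, the highest being without transgenic replicate 2. Array weights called Cd53 (3.96), Coro1a (-0.97), H2-Ab1 (1.21) and Lyz2 (1.02), with limma adjusted p between 0.000279 and 0.0214. Where these values differ from those of the report, the cause was not tested. Most of the 40 genes lay below the level, where signal over background limits what can be read.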

Other observations

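Outside all the lists, the genes whose 6 values were most like the mean profile of the 15 macrophage and leukocyte genes at or above the level were Klk10, Sema7a, Bcl2l15, Mapk1ip1l, Zfp428, Slc20a1, Txnrd1, Pmaip1, Mrps6, Acsbg1, Myocd, Mmp16, Tes, Rnf11 and Vamp8. For 7 of the 15 macrophage and leukocyte genes transgenic culture 2 alone reached the level, so the profile's peak partly follows from their choice. Pearson correlations of the named genes with the profile ran from 0.977 to 0.996 over the 6 cultures and are a description. These genes share the peak in transgenic culture 2. The largest of these peaks was that of Bcl2l15, a relative of the BCL2 family, at 4.88, 8.94 and 4.25 in the transgenic cultures, against 4.54, 4.19 and 4.45 in the non-transgenic cultures. Sema7a, a membrane-anchored semaphorin, was at 8.15, 11.27 and 7.69, against 7.78, 7.47 and 7.94. Pmaip1, the cell death gene also called Noxa, was at 11.59, 12.97 and 11.38, against 11.46, 11.40 and 11.32.

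Transgenic culture 2 also led by at least 1 log2 unit for genes of other cell types. The VEGF receptor Flt1 was at 11.53, 12.57 and 10.59 in the transgenic cultures, against 10.44, 10.42 and 10.80 in the non-transgenic cultures. The uroplakin Upk1b was at 7.68, 11.25 and 8.65, against 9.36, 7.61 and 9.71, and the smooth muscle actin Actg2 at 6.35, 8.83 and 7.57, against 6.02, 4.49 and 5.20. In non-transgenic culture 1 the genes with such leads included 8 of the 10 adipocyte markers, among them Retn at 13.05 and Cidec at 11.74.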
